A study of Mus musculus with 2 samples.

Results

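Transcript levels of 29 genes of cholesterol synthesis and its control were compared between Lgr5-positive intestinal cells of wild-type and Srcap-knockout mice. They comprise 20 synthesis enzymes, 6 genes that control SREBP2 and 3 genes of sterol uptake and transport, chosen by gene symbol from the 17840 genes in both expression tables. All 29 were above 1 FPKM in both libraries. FPKM counts sequenced fragments relative to transcript length in kilobases and to each 1000000 fragments mapped, so levels can be set side by side between genes. The wild-type library came from Srcap+/+ mice with Lgr5-Cre, and the knockout library from tamoxifen-treated mice with Lgr5-Cre and both Srcap alleles floxed. SRCAP is the ATPase of a chromatin remodeller that places the histone variant H2A.Z in nucleosomes. In both cases cells were dissociated from crypts of mice with GFP under Lgr5, a stem cell gene, and sorted by GFP intensity without culture. The Cre acts in Lgr5-expressing cells, and the labels do not give the age or sex of the mice, how many went into a library, or whether the wild-type mice also received tamoxifen.

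Mammalian cells make cholesterol from acetyl-CoA by way of mevalonate, farnesyl diphosphate, squalene and lanosterol. The transcription factor SREBP2 (Srebf2) drives the genes of this pathway: when membranes hold little sterol, its escort SCAP carries it from the endoplasmic reticulum to the Golgi, where the proteases encoded by Mbtps1 and Mbtps2 release its active part. When sterol is plentiful, INSIG proteins hold SCAP back. The small intestine both absorbs cholesterol and makes it, and proliferating crypt cells need it for new membranes.

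Each genotype had 1 library, so no test between genotypes was possible, and how far such values vary between mice is unknown. All FPKM together came to 672183 in the wild-type library and to 633837 in the knockout library. Steps between low values put the reads assigned to genes at about 16900000 and 17100000, below the average of 59000000 reads per sample in the labels. Srcap itself was at 20.4 FPKM in wild-type and 11.3 FPKM in knockout cells, 55.7% of the wild-type value. Which exons are deleted is not given in the labels, so the share of recombined cells cannot be read from this value. Both libraries held transcripts of other crypt and lamina propria cells. Of 13 listed stem cell markers, 13 were lower in the knockout library, with summed levels of 1848 and 827 FPKM, and of 10 Paneth cell markers 10 were lower, with sums of 45961 and 28046 FPKM. Of 13 enterocyte markers at 1 FPKM or more, 12 were higher, and the whole list of 14 summed to 851 and 1236 FPKM. Goblet cell markers were higher in 6 of 7 cases, with sums of 3715 and 6213 FPKM. Of 8 stromal and endothelial markers at 1 FPKM or more, 8 were higher, and the whole list of 9 summed to 52.6 and 284 FPKM. None of the markers of these lists was at 0 in either library. The part that this different cell make-up had in the results below was not tested. In sorted bulk cells, fewer cells of a type and less RNA per cell cannot be told apart.

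The sterol response of these genes is read at their promoters, where SREBP2 binds sterol regulatory elements beside boxes for the factors NF-Y and SP1. Promoter sequences from RefSeq (GRCm38.p6, the assembly also called mm10) were at hand for 24 of the 29 genes, in 30 windows from 250 bases before to 50 bases after a transcription start. Fdps, Fdft1, Sqle, Stard4 and Npc1 had none. The 250 bases before the start are shown for the 2 enzyme genes with the largest ratios (Hmgcs1 and Msmo1), the regulator with the largest (Insig1), the enzyme gene that was not higher (Lbr), and an enzyme and a protease gene without an NF-Y box (Acat2 and Mbtps1). They are printed 5′ to 3′ on the strand of the gene. Capitals mark matches to the NF-Y box CCAAT and to TCACNCCAC, a form of the sterol regulatory element, on either strand, so that ATTGG is the box on the opposite strand. The stretches lie at chr13:119690101-119690350 (plus strand) for Hmgcs1, chr8:64733579-64733828 (minus strand) for Msmo1, chr5:28071162-28071411 (plus strand) for Insig1, chr1:181842402-181842651 (minus strand) for Lbr, chr17:12960726-12960975 (minus strand) for Acat2 and chr8:119558762-119559011 (minus strand) for Mbtps1. The annotated Mbtps1 gene reaches to position 119558864, so part of its stretch lies within the gene. For Mbtps1 the lack of an NF-Y box holds for this window only.
Hmgcs1: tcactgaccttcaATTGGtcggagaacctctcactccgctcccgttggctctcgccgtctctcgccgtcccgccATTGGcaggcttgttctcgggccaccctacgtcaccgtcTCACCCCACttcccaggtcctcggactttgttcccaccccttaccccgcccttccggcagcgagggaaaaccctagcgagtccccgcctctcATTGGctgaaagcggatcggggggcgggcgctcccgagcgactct
Msmo1: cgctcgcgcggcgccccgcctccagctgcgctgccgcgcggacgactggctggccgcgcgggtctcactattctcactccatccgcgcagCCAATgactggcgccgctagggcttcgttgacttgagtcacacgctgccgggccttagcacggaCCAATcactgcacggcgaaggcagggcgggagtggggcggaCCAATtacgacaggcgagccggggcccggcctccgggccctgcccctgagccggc
Insig1: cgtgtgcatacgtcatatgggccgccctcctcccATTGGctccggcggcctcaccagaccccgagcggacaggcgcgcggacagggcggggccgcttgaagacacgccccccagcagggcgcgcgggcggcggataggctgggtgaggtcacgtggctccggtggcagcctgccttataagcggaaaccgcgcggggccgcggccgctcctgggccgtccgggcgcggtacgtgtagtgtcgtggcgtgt
Lbr: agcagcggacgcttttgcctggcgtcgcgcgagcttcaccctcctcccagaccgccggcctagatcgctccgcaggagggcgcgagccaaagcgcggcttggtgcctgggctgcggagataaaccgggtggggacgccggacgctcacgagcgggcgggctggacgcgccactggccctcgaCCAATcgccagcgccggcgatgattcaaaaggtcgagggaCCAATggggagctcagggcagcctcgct
Acat2: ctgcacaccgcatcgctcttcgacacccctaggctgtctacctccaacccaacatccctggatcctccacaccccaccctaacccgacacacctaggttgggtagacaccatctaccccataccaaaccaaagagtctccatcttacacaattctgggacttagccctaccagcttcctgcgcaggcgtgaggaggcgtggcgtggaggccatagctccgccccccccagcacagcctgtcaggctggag
Mbtps1: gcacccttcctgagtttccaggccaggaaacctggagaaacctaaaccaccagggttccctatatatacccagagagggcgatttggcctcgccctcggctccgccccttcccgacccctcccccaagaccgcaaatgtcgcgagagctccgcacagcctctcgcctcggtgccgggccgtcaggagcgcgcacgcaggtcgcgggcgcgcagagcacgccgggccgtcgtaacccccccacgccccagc

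The synthesis enzymes were higher in the knockout library, with 1 exception and by less than 2-fold. Of the 20, 19 had a higher value in the knockout library and 1, Lbr, a lower one. The median fold was 1.29, and the summed level of the 20 was 724 FPKM in wild-type and 917 FPKM in knockout cells. They made up 0.108% and 0.145% of all FPKM. On the log2 scale with a pseudocount of 1 FPKM, which is used for all log2 ratios here, the enzymes had a median of 0.35 and a range from -0.07 to 0.75. Over all 11784 genes whose larger value was at least 1 FPKM the median was 0.02, and 53.4% of genes had a ratio above 0.

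A value 25% higher, or 20% lower, by the ratio with the pseudocount was used as the mark for single genes, since none of the 29 reached a 2-fold ratio in either direction. Of all 11784 genes, 16.7% were at least 25% higher in knockout cells and 6.03% at least 20% lower, while 2.61% lay past 2-fold upwards and 0.416% past 2-fold downwards. Of the 20 enzymes, 12 were at least 25% higher and 0 at least 20% lower. Low genes scatter more, and among the 6048 genes at a mean of 10 FPKM or more 9.52% were at least 25% higher, against 10 of the 18 enzymes at that level. Ggps1, with a log2 ratio of 0.32, lay just past the mark, and Mvk, at 0.30, just short of it. With a pseudocount of 5 FPKM the 12 enzymes became 7, and the share of all genes 8.38%.

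**Figure D1:**
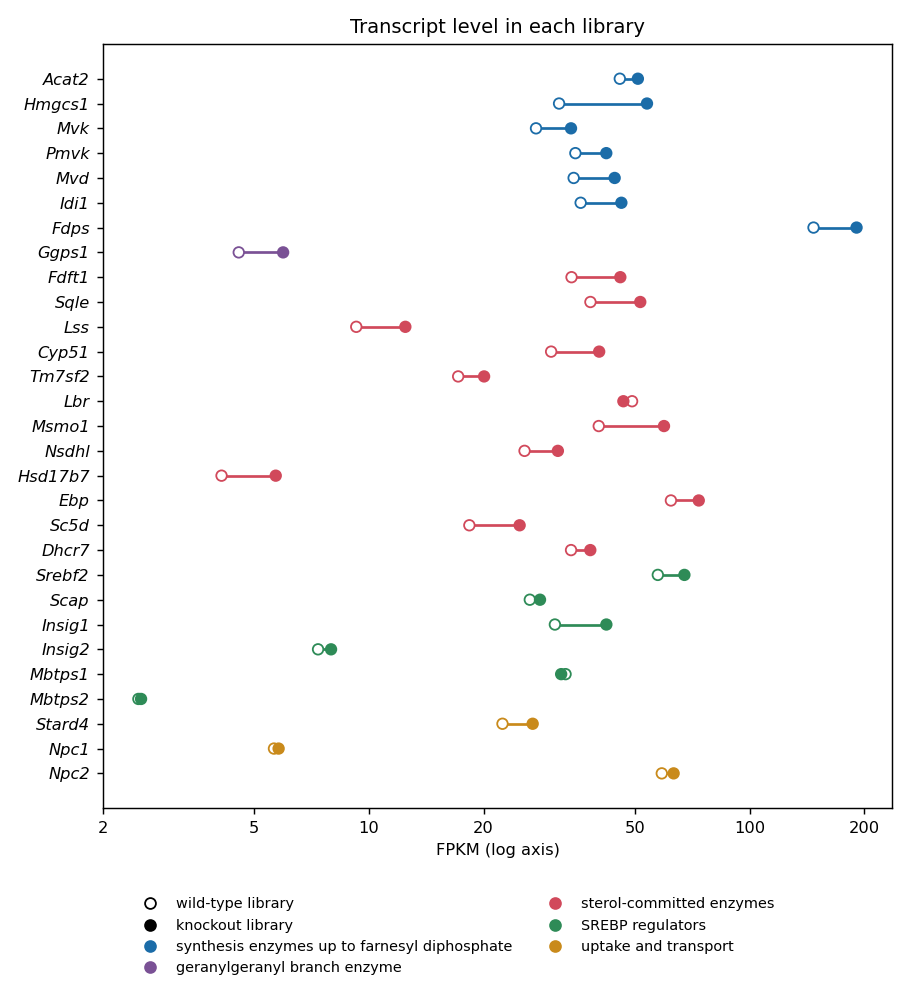
Transcript level of each of the 29 genes in FPKM, on a log axis, in the wild-type library (open points) and the knockout library (filled points), with 1 library per genotype. Genes are in pathway order and coloured by role; Lbr and Mbtps1 are the genes whose filled point lies to the left of the open one.

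The enzymes up to farnesyl diphosphate were higher in 7 of 7 cases, with a median log2 ratio of 0.35, and included the gene with the largest ratio of all 29. Hmgcs1 (chr13:119690351-119708260), which encodes the HMG-CoA synthase at the entry to the mevalonate pathway, was at 31.6 FPKM in wild-type and 53.7 FPKM in knockout cells, a fold of 1.70 and a log2 ratio of 0.75. That ratio was higher than those of 97.4% of the genes at a mean of 10 FPKM or more. By the estimated depth, Hmgcs1 rested on about 1790 and 3080 reads, and counting error alone gave a 95% interval of 1.60 to 1.80 for its fold. Hmgcs1 was also the only one of the 24 members with a promoter window to have a match to TCACNCCAC, at position -137 from the start. The step before it showed the smallest fold of this group. Acat2, which encodes a cytosolic thiolase that joins acetyl-CoA units, was at 45.6 and 50.8 FPKM, a fold of 1.12. Hmgcs1 was thus at 0.693 times the level of Acat2 in wild-type and at 1.06 times that level in knockout cells.

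The kinases and the decarboxylase that turn mevalonate into isopentenyl diphosphate lay close together. Mevalonate kinase (Mvk) was at 27.5 and 33.9 FPKM, a fold of 1.24. Phosphomevalonate kinase (Pmvk) was at 34.8 and 42.0 FPKM, a fold of 1.21, and the decarboxylase gene Mvd was at 34.5 and 44.2 FPKM, a fold of 1.28. The isomerase gene Idi1 was at 36.0 and 46.0 FPKM, a fold of 1.28. Farnesyl diphosphate synthase (Fdps), whose product is the branch point between sterols and other isoprenoids, was the most abundant of the 29 transcripts in both libraries, at 147 and 191 FPKM, a fold of 1.30. On the branch away from sterols, the geranylgeranyl diphosphate synthase gene Ggps1 was far less abundant, at 4.55 and 5.95 FPKM, but its fold of 1.31 was like that of Fdps.

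Of the 12 sterol-committed enzymes 11 were higher and 7 were at least 25% higher, with a median log2 ratio of 0.39. The first 4 steps gave nearly the same fold at unequal levels. Squalene synthase (Fdft1) was at 34.04 and 45.7 FPKM, a fold of 1.34. Squalene epoxidase (Sqle), a rate-controlling step after squalene, was at 38.2 and 51.6 FPKM, a fold of 1.35. Lanosterol synthase (Lss), which closes the sterol rings, was at 9.26 and 12.5 FPKM, a fold of 1.35, and the lanosterol demethylase gene Cyp51 was at 30.1 and 40.2 FPKM, a fold of 1.34. From Mvd to Cyp51 in pathway order, 8 genes whose wild-type levels ran from 4.55 to 147 FPKM thus had folds between 1.28 and 1.35.

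Removal of the methyl groups of lanosterol showed more spread. The methylsterol oxidase gene Msmo1 (chr8:64718123-64733578) had the second largest log2 ratio of the 29, 0.56, at 40.1 and 59.5 FPKM. Nsdhl, which encodes the dehydrogenase that acts next, was at 25.6 and 31.3 FPKM, a fold of 1.22. The ketoreductase gene Hsd17b7, the least abundant enzyme, was at 4.1 and 5.69 FPKM, a fold of 1.39. The late steps held both larger and smaller folds. The isomerase gene Ebp was at 62.1 and 73.5 FPKM, a fold of 1.18. The desaturase gene Sc5d was at 18.4 and 24.9 FPKM, a fold of 1.36, whereas Dhcr7, the reductase that ends 1 of the routes to cholesterol, was at 33.9 and 38.1 FPKM, a fold of 1.12.

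Tm7sf2 and Lbr encode enzymes that can reduce the same double bond of the sterol nucleus, and they differed. LBR is also the lamin B receptor of the inner nuclear membrane, which binds heterochromatin. Lbr (chr1:181815315-181842401) was at 49.1 FPKM in wild-type and 46.6 FPKM in knockout cells, a log2 ratio of -0.07, and was the only enzyme of the 20 with a lower value. Tm7sf2 was at 17.2 and 20.1 FPKM, a fold of 1.17. Tm7sf2 transcripts were thus at 0.349 times the level of Lbr in wild-type and 0.431 times in knockout cells. Rescaling both libraries to the same sum brought the log2 ratio of Lbr to 0.01.

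**Figure D2:**
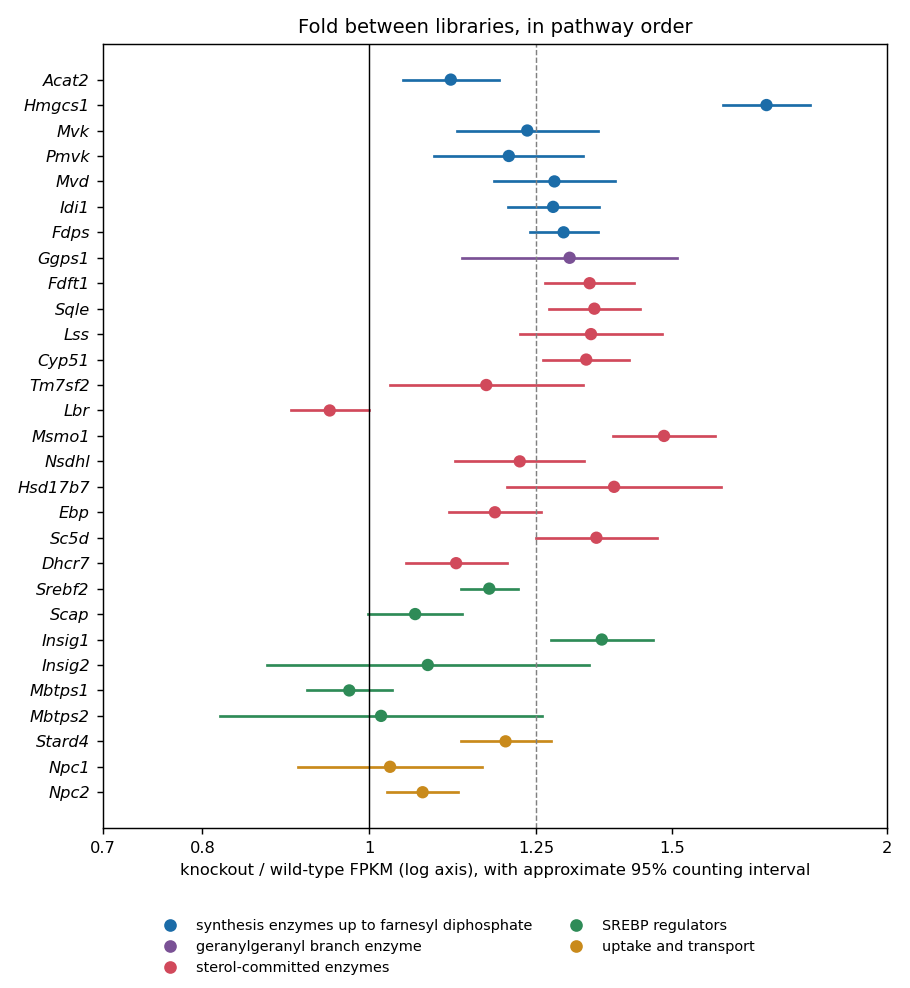
Knockout to wild-type ratio of FPKM, without pseudocount and on a log axis, for the 29 genes in pathway order, coloured by role. Lines are approximate 95% intervals that cover counting error only, from the estimated reads per gene; the solid vertical line marks equality and the dashed line a value 25% higher. The genes from Mvd to Cyp51 line up between 1.28 and 1.35, Hmgcs1 lies to the right of all others, and Scap, Insig2, Mbtps1, Mbtps2 and Npc1 have intervals that hold 1.

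Most genes that control SREBP2 were closer to equal, except for Insig1 and, to a lesser degree, Srebf2. The log2 ratio of Srebf2, 0.23, lay above those of the enzyme genes Tm7sf2, Dhcr7 and Acat2. The comparison below covers all genes that control SREBP2. Of these 6, 5 were higher and 1 lower, 1 was at least 25% higher, and their median log2 ratio was 0.09, which is 0.25 below that of the enzymes. Since members of a pathway are not replicates, this difference of medians is given without a test. The ranges overlapped, with -0.04 to 0.44 for the regulators and -0.07 to 0.75 for the enzymes. Insig1 (chr5:28071412-28078662), which holds the SCAP and SREBP complex in the endoplasmic reticulum and is itself a target gene of SREBP2, was at 30.8 and 42.0 FPKM. Its fold of 1.37 lay among those of the enzymes. Insig2, the family member that depends less on SREBP2, was at 7.35 and 7.95 FPKM, a fold of 1.08. Insig1 transcripts were thus 4.19 times as abundant as those of Insig2 in wild-type and 5.29 times in knockout cells.

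Srebf2 (chr15:82147269-82205379), which encodes SREBP2 and also has a sterol response of its own, was at 57.4 and 67.4 FPKM, a fold of 1.17, with a counting interval of 1.13 to 1.22. The escort gene Scap was at 26.5 and 28.1 FPKM, a fold of 1.06. The protease genes were nearly equal between the libraries and far apart in level. Mbtps1 (site-1 protease) was at 32.8 and 32.0 FPKM and Mbtps2 (site-2 protease) at 2.48 and 2.52 FPKM, the lowest of the 29. Mbtps1 was the only regulator with a negative log2 ratio, -0.04, which became 0.05 after rescaling to the same sum. These are transcript levels, and cleavage of the SREBP2 protein was not measured.

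Of the 3 genes of sterol uptake and transport 3 were higher and 0 were at least 25% higher, with a median log2 ratio of 0.10. Stard4, a cytosolic sterol carrier and an SREBP2 target, was at 22.4 and 26.9 FPKM, a fold of 1.20. Npc1 and Npc2, which together move cholesterol out of lysosomes, were at 5.63 and 5.79 FPKM and at 58.8 and 63.1 FPKM, folds of 1.03 and 1.07. Taking regulators and uptake genes as 1 group, 1 of 9 was at least 25% higher, against 12 of 20 enzymes and 16.7% of all genes.

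**Figure D3:**
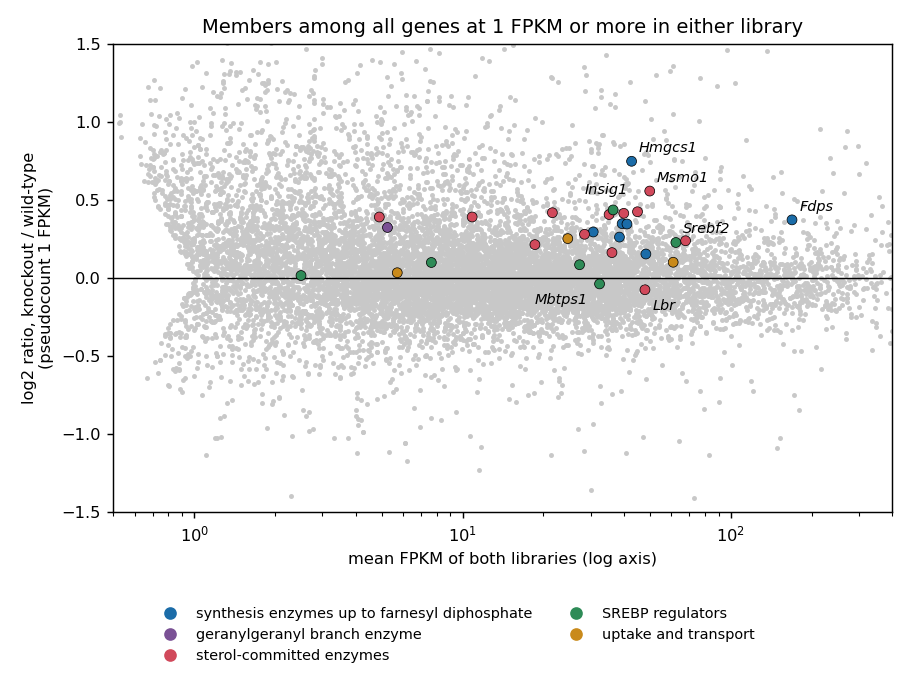
Log2 ratio (pseudocount 1 FPKM) against the mean FPKM of both libraries on a log axis, with all genes whose larger value was at least 1 FPKM in grey and the 29 members coloured by role. Of 11784 genes, 379 lie outside the axes. Hmgcs1 and Msmo1 lie highest among the members, and Lbr and Mbtps1 lie below the line of equality.

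The size of the ratio showed little relation to the level among the members. Spearman's rho between the wild-type FPKM and the log2 ratio was 0.05 over the 29 genes and -0.17 over the 20 enzymes, as a description of genes that share both libraries. Reads shared with neighbouring genes could touch some values, since the labels do not say whether strand was counted. In GENCODE M21, exons of 10 members overlap exons of another gene, and for 7 of these 10 the member is an enzyme. Fdft1 shares 20.9% of its exon bases with Ctsb, on the opposite strand, which was at 130 and 156 FPKM. Fdps shares 77.4% with Gm43738 on the same strand. Mbtps2 shares 36.1% with Yy2, which was at 0.95 and 0.76 FPKM. Among the 13 enzymes with no such overlap, 12 were higher, 6 were at least 25% higher, and the median log2 ratio was 0.30.

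NF-Y boxes were present in a larger share of enzyme promoters than of promoters at large. CCAAT was found on either strand in 16 of 20 enzyme windows (80%) and in 4 of 10 windows of the regulators and uptake genes (40%). Of all 32851 promoter windows of the same length 37.4% held it, and of the windows of genes at a mean of 10 FPKM or more 38.4%. Counted by gene, 16 of 17 enzymes (94.1%) had a box in at least 1 window, all but Acat2. By gene, it was 4 of 7 regulators and uptake genes (57.1%), 41.1% of all genes with a window and 43.6% of those at a mean of 10 FPKM or more. Of the 44 boxes in member windows 38 began within 200 bases before the start, a stretch that makes up most of each window. Where boxes lie in all promoter windows was not computed. The log2 ratio of Acat2 was 0.15, the second lowest of the enzymes. Lbr, the lowest, had 2 boxes, at positions -68 and -28. Among the regulators, Insig1, Srebf2 and Insig2 had a box in at least 1 window, with log2 ratios of 0.44, 0.23 and 0.10. Scap, Mbtps1 and Mbtps2 had none, with log2 ratios of 0.09, -0.04 and 0.02. Npc2, the only uptake gene with a window, had 2 boxes and a log2 ratio of 0.10.

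The other motifs were searched in the same way. TCACNCCAC was found in 1 of 30 member windows (3.33%) and in 1.24% of all windows. Only this form of the sterol regulatory element was searched, and only in these windows, so a missing match does not mean that a promoter lacks the element. The E-box CACGTG, which SREBPs can also bind, was found in 6 of 30 member windows (20%), among them that of Insig1 at position -101. It was in 7.15% of all windows and in 10.9% of those of genes at a mean of 10 FPKM or more. The windows of Scap overlap and hold the same E-box, which was counted in each. By gene, 5 of 24 members (20.8%) had an E-box, beside 8.09% of all genes with a window. Among those at a mean of 10 FPKM or more it was 12.8%. The SP1 box GGGCGG was found in 24 of 30 member windows, but 64.4% of windows of genes at a mean of 10 FPKM or more had it too. Matches of different motifs that overlap were each counted. A match says that these letters are present, not that a factor was bound.

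**Figure D4:**
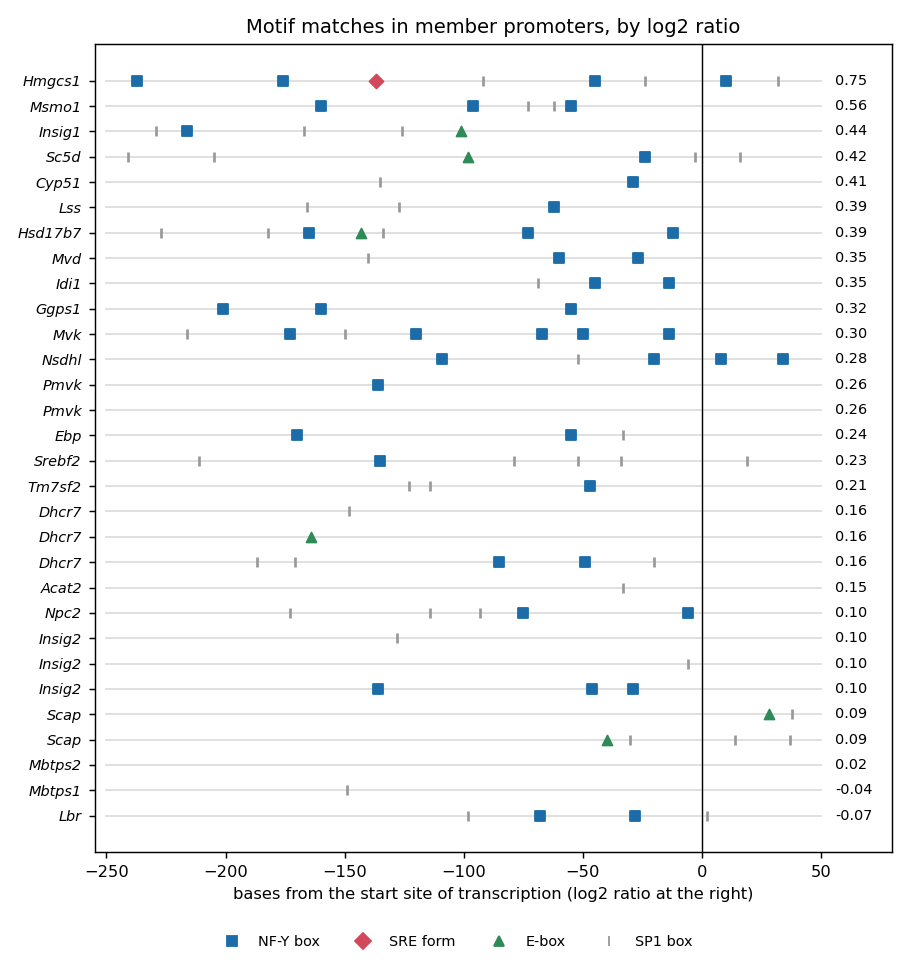
Matches to 4 motifs in 30 promoter windows of 24 members, placed by distance in bases from the start site of transcription; genes with several start sites have several lines, and the number at the right is the log2 ratio of the gene. NF-Y boxes (squares) are present in most enzyme windows, and the form of the sterol regulatory element (diamond) appears once, in Hmgcs1.

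Some further genes of sterol synthesis and sensing are given as single values, since their lists are not covered in full. Acat1, the mitochondrial thiolase, was at 66.2 and 62.2 FPKM and Pgrmc1, a haem protein that binds CYP51, at 48.6 and 51.7 FPKM. They lay on both sides of equality. Syvn1, a ubiquitin ligase of the endoplasmic reticulum, was at 26.4 and 30.6 FPKM and Tmem41b, a lipid scramblase, at 15.8 and 18.3 FPKM. The SREBP2 target genes Tmem97 and Mmab were at 135 and 137 FPKM and at 11.5 and 10.5 FPKM, and Erlin2, which takes part in sterol-regulated protein degradation, was at 27.4 and 25.4 FPKM. Tmem97, Mmab and Erlin2 were chosen after their values were seen.

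Genes that use farnesyl and geranylgeranyl diphosphate for other products did not share the direction of the synthesis enzymes. Of these 13, 9 were lower and 4 higher, none was 25% higher or 20% lower, and the median log2 ratio was -0.11. Over all genes, 53.4% had a ratio above 0. Some of the 13 were nearly equal between the libraries, and the list was not rescaled. These directions therefore hold only for the values as deposited. Pdss1, which builds the side chain of coenzyme Q, was at 35.6 and 30.7 FPKM. Fnta, a subunit shared by enzymes that attach farnesyl or geranylgeranyl groups to proteins, was at 37.7 and 33.0 FPKM, and Rabggtb, which lipidates Rab proteins, at 30.7 and 27.5 FPKM. Zmpste24, a protease that trims farnesylated prelamin A, was the other way, at 12.2 and 13.8 FPKM.

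Genes of sterol uptake, transfer, esterification and efflux spread widely. Of 19 at 1 FPKM or more, 16 were higher and 3 lower, with a median log2 ratio of 0.30. Of the 19, 9 (47.4%) were at least 25% higher and 1 at least 20% lower, beside 16.7% and 6.03% of all genes. The gene past the lower mark was Soat1, which esterifies cholesterol in most tissues, at 10.7 and 6.26 FPKM, a log2 ratio of -0.69. Its enterocyte counterpart Soat2 was at 17.4 and 22.7 FPKM. Abcg5, part of the transporter that returns sterols to the gut lumen, was at 19.3 and 29.95 FPKM, its partner Abcg8 at 8.67 and 12.96 FPKM, and the sterol absorption gene Npc1l1 at 23.1 and 34.99 FPKM. Apoe, a lipoprotein component that macrophages also secrete, was at 146 and 284 FPKM, and Lipa, the lysosomal lipase, at 2.74 and 5.18 FPKM. Soat2, Abcg8 and Npc1l1 were chosen after their values were seen. These genes are also known from enterocytes or macrophages, and the myeloid markers, 8 of 8 higher, summed to 174 and 428 FPKM beside the enterocyte sums given above. Their part in these values was not tested.

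Fatty acid synthesis genes, driven mainly by the related factor SREBP1, differed in both directions. Of 12 at 1 FPKM or more, 7 were higher and 5 lower, with a median log2 ratio of 0.13. Of the 12, 4 (33.3%) were at least 25% higher and 2 at least 20% lower, beside 16.7% and 6.03% of all genes. The desaturase gene Scd2 was at 48.6 and 82.4 FPKM and the elongase gene Elovl6 at 8.12 and 12.3 FPKM, while the desaturase gene Fads1 was at 47.8 and 34.5 FPKM and Acss2, which makes acetyl-CoA from acetate, at 38.2 and 30.1 FPKM. No direction was shared by the list, in contrast to 19 of 20 sterol enzymes.

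**Figure D5:**
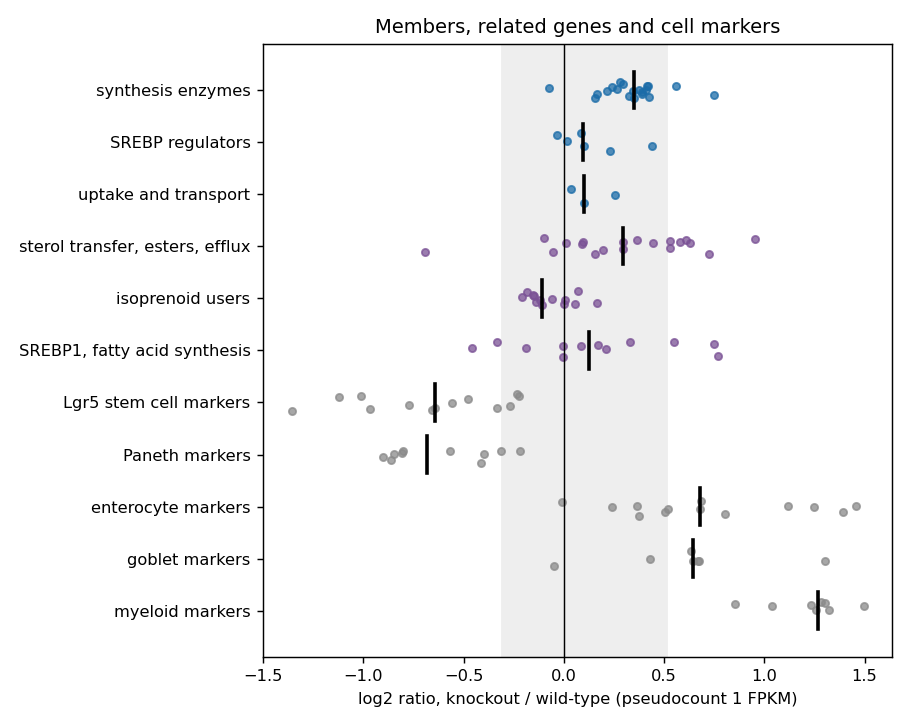
Log2 ratio (pseudocount 1 FPKM) of each gene at 1 FPKM or more, by list, with the list median as a black bar. The shaded band spans the 5th to 95th percentile of genes at a mean of 10 FPKM or more, from -0.31 to 0.52. The synthesis enzymes cluster at a median of 0.35, the isoprenoid users at -0.11, and the cell markers spread further on either side.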

How the data were processed

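Single-end 50 bp RNA reads, on average 59000000 per sample, were made on a BGISEQ-500, per the labels' protocols. The authors deposited FPKM values to 2 decimals in 1 table per library, per the file headers. The submitters' processing notes name HISAT, Bowtie2 and RSEM, with neither version nor role, and the build mm10. For annotation, filters and strand, the sources used here give nothing.

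Tables were joined on the Entrez identifier, and members were found by symbol. Log2 ratios were taken after adding 1 FPKM (the pseudocount), so changes of low genes are understated. A gene was counted where its larger value was at least 1 FPKM. Folds of single genes are ratios of FPKM without pseudocount. The members, lists and the 25% mark were chosen with earlier results of these data known. Genes named were the 29 members, Srcap, and of each related list up to 4 genes at 5 FPKM or more with the largest absolute ratio. Others are marked in the text as chosen after their values were seen. Some genes within this rule are not reported here, so the lists of further SREBP2 targets and sterol synthesis genes get no counts, and markers are given as counts and sums of their lists.

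Counts were not used here. The value of 1 read was estimated from FPKM times length in genes under 900 nucleotides with a single GENCODE M21 transcript, as 0.059 FPKM kb for wild-type (92 genes, 75.0% of values within 0.2 of a whole read) and 0.0585 for knockout (94 genes, 71.3%). Reads per member used the principal transcript. These depths are approximate and cover counting error only. The range of steps searched did not reach the smaller step that 59000000 assigned reads would give, so a depth that large could not have been found. Python 3.11.15, pandas 2.3.3 and numpy 2.4.6 were used, and the steps were tested on simulated data.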

Additional observations from a re-analysis of the deposited data

How the results depend on the processing

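All alternatives were fixed in advance, though with earlier results of these data known. The alternatives were other pseudocounts, 4 rescalings and other filters. The median log2 ratios of the role groups were judged by the counting error of single genes, since that of a median was not computed. Only the median of the sterol-committed enzymes moved by more, to 0.27 with a pseudocount of 5 FPKM. Whether the medians moved by more than their own counting error is therefore unknown. Rescaling to a sum of 1000000 took the median of the enzymes from 0.35 to 0.43 and that of the regulators from 0.09 to 0.18. That of the uptake genes went from 0.10 to 0.19. The difference between enzymes and regulators, 0.25, became 0.26 with this rescaling and 0.19 with a minimum of 10 FPKM. No member reached 2-fold under any alternative. The 13 members and 12 enzymes at least 25% higher became 8 and 7 with a pseudocount of 5 FPKM, and 18 and 16 after rescaling to a sum of 1000000. Among all genes, the 1973 higher and 711 lower by these marks became 988 and 282 with that pseudocount, and 674 and 307 with a minimum of 10 FPKM on the larger value. The 308 higher and 49 lower by 2-fold became 656 and 110 with a pseudocount of 0.1 FPKM, 108 and 23 with 5 FPKM, and 121 and 30 with the minimum of 10 FPKM. Rescaling to a sum of 1000000 gave 472 genes 2-fold higher, raised the share of all genes 25% higher to 23.6%, and left 29 of 29 members above 0. It took the median log2 ratio of genes averaging at least 10 FPKM from -0.01 to 0.07. Of 227 values of single members under the alternatives, 219 moved by less than counting error, 8 by more and 0 members past the mark changed direction. Leaving out a library was not possible with 1 per genotype. No paired analysis was possible for the same reason.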
